A study of Mus musculus with 2 samples.

Results

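The genes described here are 34 named lysosomal genes, chosen by symbol for their function and covering membrane proteins, hydrolases, lipid transfer proteins, transcription factors and an autophagy receptor. Their probes were found by the gene name in the array files, with Tfeb and Tfe3 listed there under the older symbols Tcfeb and Tcfe3. All 34 were measured on both arrays, among 16983 genes measured on both of 30141 genes with a name on the array. The 51 probes of these genes gave 49 measurements on both arrays. The levels are of mRNA, and no protein or enzyme activity was measured.

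The study compared mononuclear cells from mouse bone marrow that had been cultured with or without ninjin'yoeito (NYT), a herbal drug of the Japanese tradition. The untreated culture is called control, and both cultures came from C57BL/6 mice (C57/Bl6J in the strain label) aged 2 to 4 months. Marrow was washed from the femurs in medium with 2% fetal bovine serum, and the cells were collected on day 11. Each culture was measured on 1 one-colour Agilent array, and both arrays lay on the same slide. Whether the cultures shared animals, how many animals were pooled and the dose of NYT are details the sources used here do not give. With 1 array per culture there was no spread between replicates, so no test was made and a difference describes these 2 cultures.

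Lysosomes are acidic organelles in which hydrolases take apart proteins, glycans, lipids and nucleic acids that arrive by endocytosis, phagocytosis or autophagy. Most soluble hydrolases are tagged with mannose-6-phosphate in the Golgi and carried to the lysosome by receptors, while membrane proteins line the organelle, move cholesterol and ions, and anchor nutrient sensing. The transcription factors Tfeb, Tfe3 and Mitf bind a short DNA element with the core CACGTG in the promoters of many lysosomal genes. Macrophages and osteoclasts, which arise from marrow progenitors, are rich in lysosomes.

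The element is shown first because it is what many lysosomal promoters are known to share. The rule that names the genes did not use the element, but it picked genes for their lysosomal function. A higher share of the element among them than among all genes is therefore not independent of that choice. The shares below were counted in promoter sequence and do not draw on the array values. RefSeq promoter windows for assembly GRCm38.p6, from 250 bases before to 50 bases after a gene's start, were found for 31 of the 34 genes. Asah1, Galns and Npc1 had no entry. GTCACGTG, read on either strand, was present in 8 of those 31 genes (25.8%), against 689 of 27025 genes with a window (2.55%). The 8 genes were Lamp1, Mcoln1, Cln3, Gla, Glb1, Naglu, Sgsh and Lgmn. The shorter core CACGTG, which lies within GTCACGTG, added Gaa to give 9 genes (29%), against 8.09% of all genes. The same letters followed by AC, a 10-base palindrome, were present in Cln3 alone, or 3.23% of the 31 genes, against 0.37% of all genes. A match is a description of letters and does not show that a factor binds there.

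The 250 bases before the start are printed for 4 genes, Cln3, Gla and Mcoln1 with the longest matches to that palindrome and Lamp1, the first in list order of the genes tied at 8 matching bases, 5′ to 3′ on the gene's own strand. Capitals mark each CACGTG together with the bases beside it that also fit the palindrome. Cln3 lies at chr7:126583237-126583486 on the minus strand, and its full 10-base match begins 123 bases before the start. Gla lies at chrX:134601006-134601255 on the minus strand, with 9 matching bases that begin at position -196. Mcoln1 lies at chr8:3500269-3500518 on the plus strand, with 9 matching bases that begin at position -46 and a second match upstream. Lamp1 lies at chr8:13158911-13159160 on the plus strand, with 8 matching bases that begin at position -28 and 4 copies of CACGTG in all.
Cln3: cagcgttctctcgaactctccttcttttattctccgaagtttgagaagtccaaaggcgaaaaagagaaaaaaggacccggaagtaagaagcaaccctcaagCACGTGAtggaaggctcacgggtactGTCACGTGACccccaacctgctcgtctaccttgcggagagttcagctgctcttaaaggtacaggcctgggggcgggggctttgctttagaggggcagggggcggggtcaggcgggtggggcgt
Gla: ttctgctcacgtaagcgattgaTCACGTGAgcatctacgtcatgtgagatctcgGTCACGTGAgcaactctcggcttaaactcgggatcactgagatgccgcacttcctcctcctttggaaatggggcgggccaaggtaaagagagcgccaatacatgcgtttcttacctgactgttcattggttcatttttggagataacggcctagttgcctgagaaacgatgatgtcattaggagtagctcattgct
Mcoln1: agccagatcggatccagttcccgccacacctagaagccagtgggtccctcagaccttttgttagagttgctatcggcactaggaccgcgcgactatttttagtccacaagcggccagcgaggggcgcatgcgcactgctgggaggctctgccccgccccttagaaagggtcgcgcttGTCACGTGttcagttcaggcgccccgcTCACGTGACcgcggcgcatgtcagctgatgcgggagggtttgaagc
Lamp1: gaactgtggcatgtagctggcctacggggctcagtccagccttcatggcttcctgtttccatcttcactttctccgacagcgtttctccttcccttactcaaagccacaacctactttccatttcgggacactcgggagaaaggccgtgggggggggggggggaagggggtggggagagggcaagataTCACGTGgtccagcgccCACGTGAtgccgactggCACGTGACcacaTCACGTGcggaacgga

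Levels are given as the processed intensity on each array, in arbitrary fluorescence units, before any scaling. Over gene probes the array of the NYT culture was dimmer: its 75th percentile was 728, against 1475 on the control array, a ratio of 2.03. The E1A spike-in RNA was not dimmer there, with a median log2 difference of 0.16, NYT minus control, before scaling. The cause of the dimmer gene probes was not tested. Differences are given as NYT minus control on the log2 scale after each array's 75th percentile was subtracted, which moved every difference up by 1.02. "Higher" and "lower" refer to that scale. Probes were well above background for 57.7% of probes on the NYT array and 62.2% on the control array. Among probes printed 10 times, the SD of the difference over spots had a median of 0.05 and a 95th percentile of 0.19, which covers spot noise and neither cultures nor hybridisations.

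On this scale 7 of the 34 genes were at least 2-fold higher in the NYT culture (20.6%), where 11.2% of all genes measured were. They were Mcoln1, Naglu, Lipa, Galns, Sqstm1, Npc2 and Cd63. The single Galns probe holds letters that recur elsewhere, as described below. A single gene, Man2b1, was at least 2-fold lower, where 11% of all genes were. In all, 29 of the 34 differences were above 0, as were 64.4% of differences over all genes. The median of the 34 genes was 0.48 with quartiles of 0.15 and 0.87, against a median of 0.29 over all genes with quartiles of -0.28 and 0.68. The position of the 34 genes against all genes depended on the scaling: their median was 0.13 against 0.20 with quantile normalization, and -0.01 against -0.02 with loess. Without scaling the median was -0.54, against -0.73 over all genes. With no scaling, or with either form of spike-in scaling, the medians of all 6 role groups below were under 0. Without scaling none of the 34 was at least 2-fold higher, where 1.24% of all genes were, and 5 were lower, where 36.4% were. At a 1.5-fold threshold 15 were higher as scaled, where 30.4% of all genes were, and 1 was lower, where 16.9% were.

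**Figure D1:**
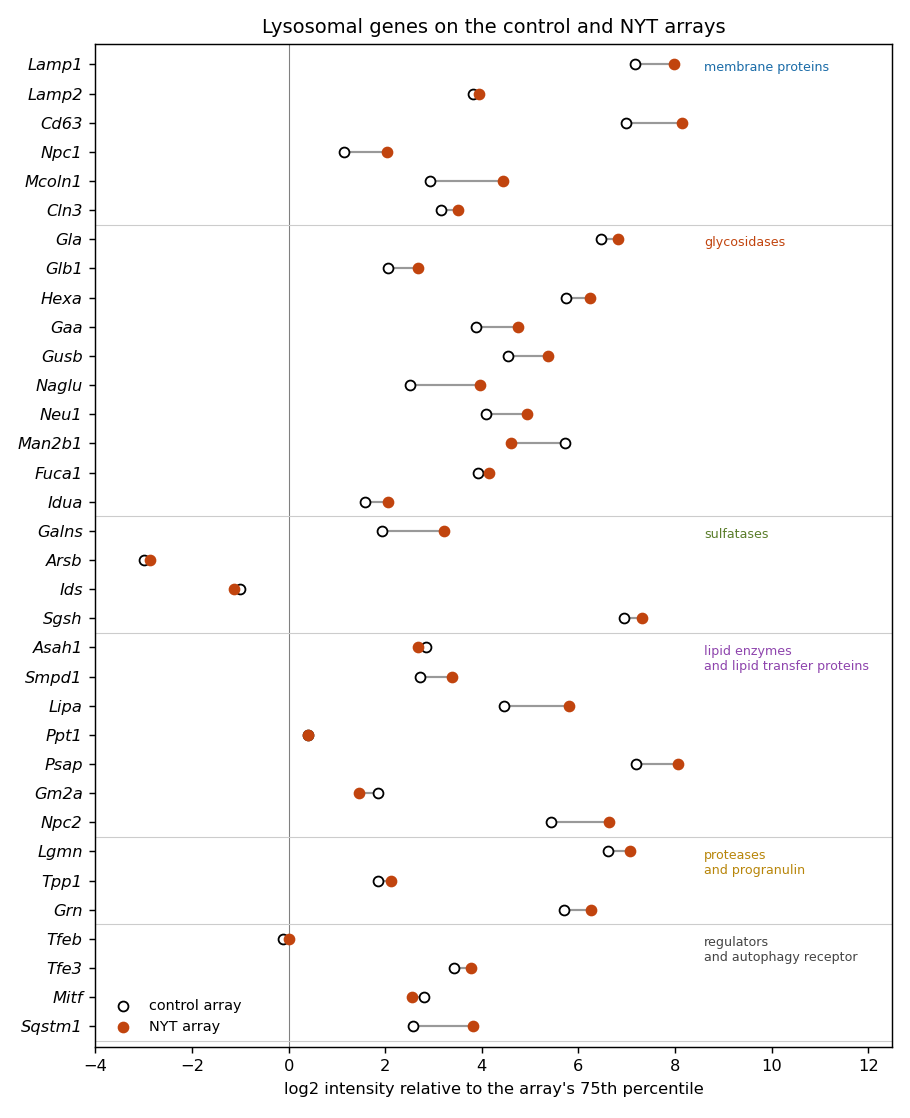
Level of each of the 34 lysosomal genes on the control array (open circles) and the NYT array (filled circles), as log2 intensity relative to that array's 75th percentile, grouped by role; each circle is 1 array. The NYT circle lies to the right in 29 genes and to the left in 5 on this scale, and 27 of the 34 lie to the left before scaling.

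Among the 6 membrane proteins, Mcoln1 and Cd63 were at least 2-fold higher (33.3%, against 11.2% of all genes), and the group's median difference was 0.84. That median was -0.18 without scaling and -0.56 with spike-in scaling. Mcoln1, the calcium-permeable channel through which lysosomes release calcium, read 11215 in the control culture and 15716 in the NYT culture, a difference of 1.5 or 2.84-fold. It was one of 7 members brighter on the NYT array before scaling, which were the same 7 called higher. Scaling moved every difference up by 1.02, so a 2-fold call nearly requires this and it is not added support. A second Mcoln1 probe was dim, at 107.2 and 62.4, and gave a difference of 0.24, so the probes of this gene disagree in size. Both are shown by their first 30 bases, since the call rests on the choice between them; the bright one lies at chr8:3515110-3515139 and the dim one at chr8:3513500-3513529, both on the plus strand of mm9.
Mcoln1 bright probe: tttttagaatttgctttaaaagatctgcgt
Mcoln1 dim probe: aattagagacgacttgtggaaatcagctct

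Cd63, a tetraspanin of late endosomes and lysosomes, read 187528 in the control culture and 206358 in the NYT culture, 2.23-fold higher after scaling. Npc1, which exports cholesterol from the lysosome, read 3283 and 2986, a difference of 0.88. Lamp1 and Lamp2 are the abundant glycoproteins of the lysosomal membrane, and their differences were not alike. Lamp1 read 213596 and 183265, a difference of 0.80. Lamp2 read 20935 and 11174, a difference of 0.11, and its second probe gave 0.09. Cln3, a membrane protein mutated in juvenile Batten disease, read 13206 and 8334, and its 3 probes gave 0.35, 0.14 and 0.01.

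Of the 10 glycosidases, which remove sugars one by one from glycans and glycolipids, 1 was at least 2-fold higher and 1 lower by as much. These shares of 10% are near those of all genes, 11.2% higher and 11% lower. The median difference of the 10 glycosidases was 0.56 as scaled, -0.46 without scaling and -0.84 with spike-in scaling. Naglu, which acts on heparan sulfate, read 8368 in the control culture and 11329 in the NYT culture, a difference of 1.46 or 2.74-fold. Man2b1, the acid alpha-mannosidase of glycoprotein breakdown, went the other way. It read 77806 in the control culture and 17638 in the NYT culture, 2.18-fold lower after scaling and -2.14 on the log2 scale before it. Man2b1 was the only member at least 2-fold lower as scaled, and it stayed at least 2-fold lower in each of 9 scaling and background settings. Median, no, spike-in and housekeeping scaling differ from the reported scaling only by the same shift for every gene, so these are not separate checks. Man2b1 stood at -1.54 with quantile normalization, -1.63 with loess and -1.21 with normexp. Its level rests on 1 probe, at chr8:87621348-87621407 on the plus strand of mm9, of which the first 30 bases are shown because no other probe can be set beside it.
Man2b1 probe: acactgaagcctatggaaatacgtaccttc

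The other glycosidases lay between those 2 genes. Gaa, which digests glycogen, read 21697 and 19566 (0.87), with a second probe at 0.78. Neu1, a sialidase, read 25105 and 22385 (0.85). Gusb, the beta-glucuronidase often used as a reference gene, read 34405 and 30217 (0.83) over 10 spots whose log2 SD was 0.03 for control and 0.04 for NYT. Its second, separate probe gave 0.84, so the Gusb difference did not depend on the probe. Glb1, the acid beta-galactosidase, read 6126 and 4682 (0.63). Hexa, the alpha subunit of beta-hexosaminidase, read 79252 and 54830 (0.49). These 5 enzymes were all under 2-fold, and each was dimmer on the NYT array before scaling. Idua, which acts on dermatan and heparan sulfate, read 4441 and 3024 (0.46). Gla, which removes galactose from globotriaosylceramide, read 130048 and 82720 (0.37) by a probe whose letters recur elsewhere, as described below. Fuca1, a fucosidase, read 22235 and 12868 (0.23), and its dim second probe gave 0.54.

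Of the 4 sulfatases, which strip sulfate from glycosaminoglycans, Galns alone was at least 2-fold higher, where 11.2% of all genes were. Galns read 5654 in the control culture and 6761 in the NYT culture, a difference of 1.28 or 2.42-fold. Sgsh, the heparan sulfamidase, read 181861 and 116424 (0.37). Arsb, which acts on dermatan sulfate, was dim at 186 and 99.4 (0.11), with a second probe at 0.69. Ids, the iduronate sulfatase, read 730 and 332 (-0.12). The group's median was 0.24 as scaled, and it was below 0 without scaling (-0.77), with loess (-0.18), with spike-in scaling (-1.15) and with housekeeping scaling (-0.28).

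Sgsh, Gla and Galns are represented by probes whose letters recur elsewhere, and so is a second probe of Idua that was not used for its value above; these sequences are shown because the levels are read from them. A word of 17 bases that also occurs in 5 or more RefSeq promoter windows was found in 4 of the 51 member probes. On the array 637 of 39429 probes (1.62%) held such a word by a stricter count. The member count pooled windows with the word on either strand, while the array count took the larger strand alone. The 2 counts are therefore not strictly comparable. The brightest Sgsh probe, at chr11:119204865-119204924 on the minus strand of mm9, holds a 22-base run of alternating G and T. Its neighbour, at chr11:119204805-119204864, has no such run. The second Idua probe holds a 20-base run of alternating C and A, while the brighter Idua probe used above does not. The single Gla probe shares a 17-base word with 40 of 32851 promoter windows, and the single Galns probe shares one with 6. These counts cover promoter windows alone, so how often the words occur elsewhere in the genome was not counted. In the 30-base stretches below, capitals mark the run or the shared word; the Sgsh repeat stretch begins at the second base of its run, and a further, shorter GT run after the c is in capitals too. The Sgsh repeat stretch lies at chr11:119204877-119204906, the Galns stretch at chr8:125102154-125102183 and the Gla stretch at chrX:131122925-131122954, all on the minus strand of mm9. The other stretches are the first 30 bases of their probes, at chr11:119204835-119204864 on the minus strand for Sgsh and at chr5:109112893-109112922 and chr5:109113517-109113546 on the plus strand for Idua.
Sgsh repeat probe: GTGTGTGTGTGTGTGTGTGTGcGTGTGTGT
Sgsh second probe: cttcctactcctccttatggaagtgtgaaa
Idua repeat probe: CACACACACACACACACACAgagtctaaat
Idua first probe: cccaaatgactctagcttgtaataaactga
Galns probe: cttgggagtgCTGGGATTAAAGGCGTGcgc
Gla probe: gaTCTGATGCCCTCTTCTGgttctctagac

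Probes of other genes that carry a GT run of at least 20 bases had a median control intensity of 113577 over the 49 measured of 51. Their differences had a median of -0.07 with quartiles of -0.26 and 0.06. The neighbouring Sgsh probe read 6239 and 4278. The difference of Sgsh was 0.37 by the repeat probe and 0.47 by the probe without a run. Probes of other genes with a CA run had a median control intensity of 1856 over 23 probes and a median difference of 0.57. The Idua repeat probe read 2654 and 2065 (0.66), and the Idua probe without the run gave 0.46. For Galns, 1 probe of another gene shares 20 bases on the same strand, and its difference was 1.16, beside 1.28 for Galns. Gla and Galns have no second probe, and the part of cross-hybridisation in the levels of Sgsh, Gla and Galns was not tested.

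The 7 lipid enzymes and lipid transfer proteins had a median difference of 0.67, which was -0.35 without scaling and -0.73 with spike-in scaling. Lipa, the acid lipase that frees cholesterol and fatty acids from lipoproteins, read 32319 in the control culture and 40622 in the NYT culture, a difference of 1.35 or 2.55-fold. Npc2, the soluble protein that hands cholesterol to Npc1, read 63648 and 72248, a difference of 1.2 or 2.30-fold. Both were brighter on the NYT array before scaling, as a 2-fold call after scaling nearly requires. Psap, the precursor of the saposins that present sphingolipids to their enzymes, read 214614 and 193379 (0.87). Smpd1, the acid sphingomyelinase, read 9655 and 7579 (0.67). Ppt1, which removes fatty acids from proteins, read 1938 and 969 (0.02). The remaining 2 genes, which also serve sphingolipid breakdown, lay below 0 by their brightest probe. Gm2a, the activator that lifts its ganglioside out of the membrane, read 5303 and 2011 (-0.38), with -0.47 by a second probe. Asah1, the acid ceramidase, read 10656 and 4641 (-0.18), but its second probe gave 0.20 and its direction is not settled.

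None of the 3 genes for proteases and progranulin reached 2-fold, where 11.2% of all genes were higher and 11% lower by as much. The group's median was 0.46 as scaled but -0.56 without scaling, -0.02 with loess and -0.06 with housekeeping scaling. Lgmn, an endopeptidase that cleaves after asparagine, read 144079 in the control culture and 97874 in the NYT culture (0.46). Grn, whose product progranulin is delivered to lysosomes and processed there, read 76439 and 56200 (0.57). Tpp1, which removes tripeptides from protein ends, read 5292 and 3173 (0.28), the same as the median of all genes to within 0.01.

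Among the regulators, the 3 transcription factors differed little as scaled. With spike-in scaling Tfeb stood at -1.27, Tfe3 at -1.04 and Mitf at -1.65, where the median of all genes was -1.11. Tfeb read 1353 in the control culture and 728 in the NYT culture (0.12), and neither array had its second probe well above background. Tfe3 read 15802 and 10012 (0.36), and its second probe gave 0.37. Mitf, known for osteoclasts and mast cells as well as pigment cells, read 10354 and 4269 (-0.26), while its second probe gave 0.48. These factors are known to be controlled largely by their movement between cytoplasm and nucleus, which mRNA does not show. Sqstm1, the receptor that links ubiquitin-marked cargo to autophagosomes, read 8789 and 10208, a difference of 1.23 or 2.35-fold. A dim second probe of Sqstm1, at 139 and 94.0, gave 0.46. The group's median was 0.24 as scaled and was below 0 without scaling (-0.78), with loess (-0.06), with spike-in scaling (-1.15) and with housekeeping scaling (-0.28).

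**Figure D2:**
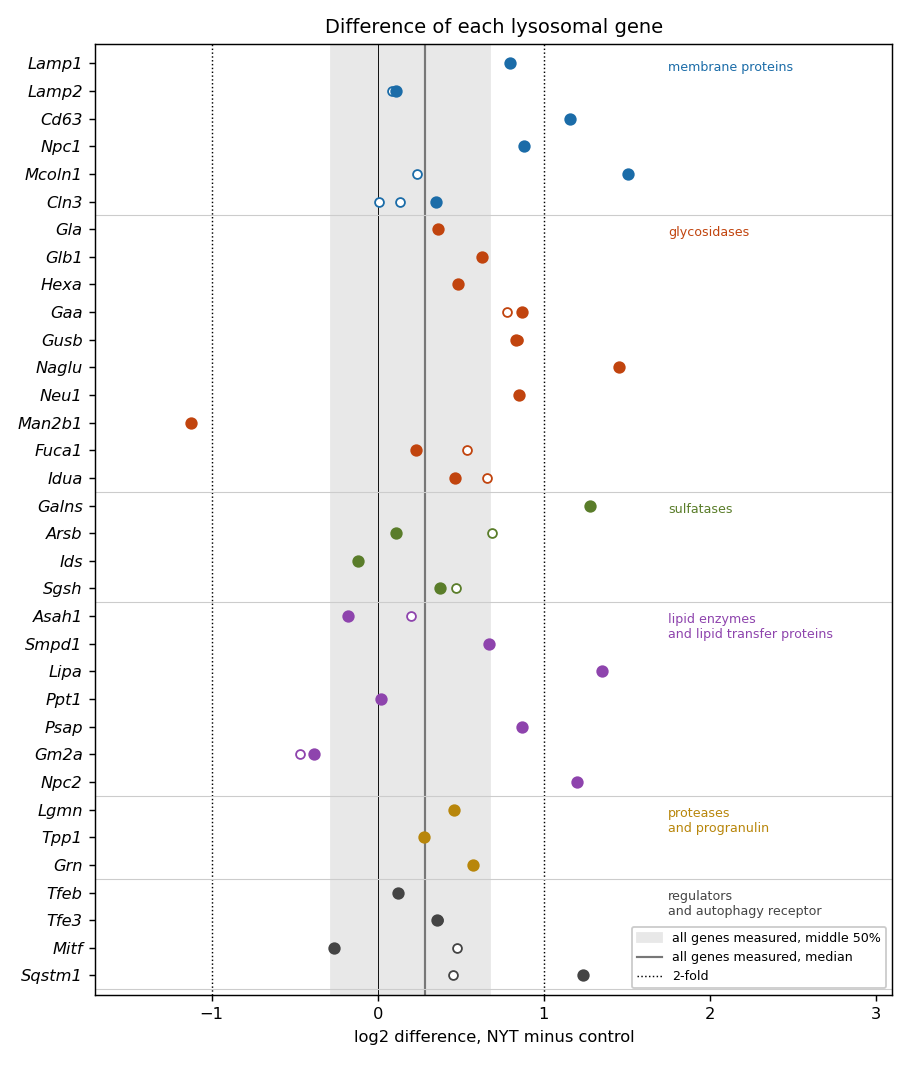
Log2 difference (NYT minus control, scaled to the 75th percentile) of each of the 34 genes; filled circles are the brightest probe, open circles the other measured probes, dotted lines 2-fold, and the grey band and line the quartiles and median of all 16983 genes measured. Man2b1 lies at -1.12 and the 7 genes beyond the right-hand dotted line lie between 1.16 and 1.5; all 7 fall short of 2-fold when the arrays are not scaled.

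Probes of a gene gave a further check on single differences. Of the 34 genes, 14 had several measured probes, and in 2 of them, Asah1 and Mitf, the probes differed in sign (14.3%, against 26.3% of the 4056 genes with several measured probes on the array). The median gap between the highest and lowest probe was 0.25. Mcoln1 (1.27), Sqstm1 (0.78) and Mitf (0.74) had the widest gaps. For Mcoln1 and Sqstm1 the probe that gave the smaller difference was the dim one. The differences of Naglu, Lipa, Galns, Npc2, Cd63 and Man2b1 rest on 1 probe each.

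The differences are given here beside the promoter element, with no test. Of all genes measured, 11.2% were at least 2-fold higher. The 8 genes whose window holds GTCACGTG ranged from 0.35 to 1.5 with a median of 0.55, and 2 of them, Mcoln1 and Naglu, were at least 2-fold higher. The 23 genes without it ranged from -1.12 to 1.35 with a median of 0.46, and 4 of them were at least 2-fold higher. Galns, the remaining gene at least 2-fold higher, had no window.

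**Figure D3:**
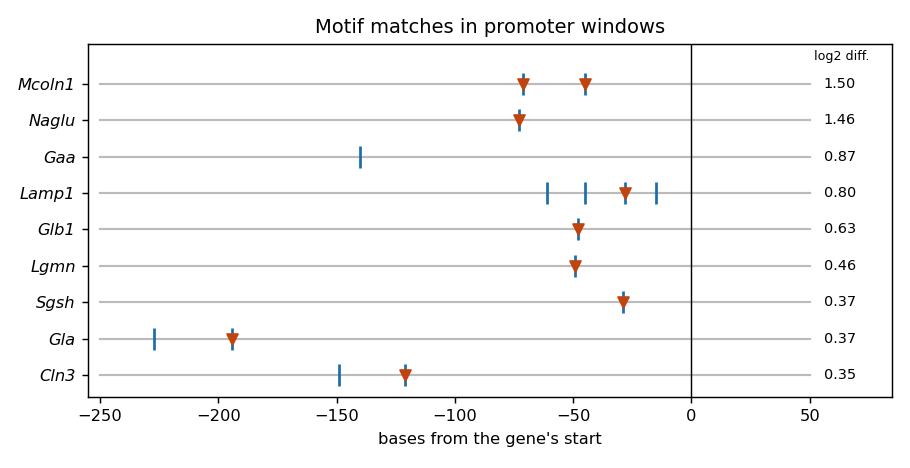
Position of CACGTG (blue bars) and of the longer GTCACGTG on either strand (orange triangles) in the promoter windows of the 9 genes that hold one, in bases from the gene's start, with the gene's log2 difference (NYT minus control, scaled) at the right. The genes are ordered by difference, from 1.5 for Mcoln1 to 0.35 for Cln3, and the position of the element runs from -15 in Lamp1 to -227 in Gla.

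The rest of the lysosomal pathway was read from 5 further lists chosen by function, whose medians were all above 0 as scaled and all below 0 without scaling and with either spike-in scaling. The counts in these lists stand beside 11.2% of all genes at least 2-fold higher and 11% lower. Of 21 other hydrolases, 5 were at least 2-fold higher (23.8%) and 1 lower (4.76%), and the median stood at 0.46 (-0.55 in unscaled values). Dpp7, a dipeptidyl peptidase of the lysosome, read 10620 in the control culture and 13651 in the NYT culture (1.38). Aga, which splits sugar from asparagine, read 2212 and 2412 (1.14). Cpq, a carboxypeptidase, was lower, at 6233 and 1163 (-1.40).

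Of 27 other lysosomal membrane proteins, 7 were at least 2-fold higher (25.9%, against 11.2% of all genes) and 1 lower (3.7%, against 11%), and the median stood at 0.63 (-0.38 in unscaled values). The largest difference was that of Mcoln3, a channel of the same family as Mcoln1. Mcoln3 read 62.8 in the control culture and 1321 in the NYT culture, 42.6-fold higher after scaling (5.41), and a second probe gave 3.20. Over 9 scaling and background settings its difference ran from 4.02 to 5.44, with 4.37 under normexp background correction. Mcoln2, the third member of that family, read 5568 and 10142 (1.88), so that all 3 mucolipin channels were at least 2-fold higher by their brightest probe as scaled. Laptm4b, a membrane protein of late endosomes, read 467 and 955 (2.05). Abcb9, a peptide transporter, was lower, at 2660 and 437 (-1.59).

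The 13 genes of mannose-6-phosphate tagging and sorting stood at the median of all genes, with 0.29 as scaled and -0.73 without scaling. None was at least 2-fold higher, where 11.2% of all genes were, and 1 was lower (7.69%, against 11%). Sorl1, a sorting receptor, was lower, at 12674 in the control culture and 1931 in the NYT culture (-1.7), and its second probe gave -2.05. Sort1, the related receptor sortilin, read 6017 and 1616 (-0.88), but its other probes gave -0.29 and 0.72. M6pr, the small mannose-6-phosphate receptor, read 6782 and 6032 (0.85), and Vps35, a core subunit of the retromer that returns receptors to the Golgi, read 841 and 735 (0.82).

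Of 19 genes of nutrient sensing at the lysosome, 18 were measured on both arrays, and 3 were at least 2-fold higher (16.7%, against 11.2% of all genes) and none lower, where 11% of all genes were. Their median was 0.67 as scaled and -0.35 without scaling. Rragd, a Rag GTPase that carries amino acid signals to mTORC1, read 53.2 in the control culture and 325 in the NYT culture, 12.4-fold higher after scaling (3.63). Fnip2, a partner of folliculin in the control of Rag GTPases, read 4633 and 10352, 4.53-fold higher (2.18). Lamtor3, a subunit of the Ragulator anchor, read 13820 and 20289 (1.57), with 0.48 and 0.85 by its other probes. Rragd, Fnip2 and Lamtor3 stayed above 0 in all 9 scaling and background settings, with lowest values of 2.23, 0.78 and 0.18. Under normexp background correction Rragd stood at 2.55. Rraga, another Rag GTPase, read 4334 and 3905 (0.87). Rragb was well above background on the control array alone.

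Of 27 autophagy genes, 4 were at least 2-fold higher (14.8%, near the 11.2% of all genes) and 1 lower (3.7%, against 11%), with a median of 0.36 as scaled, -0.66 without scaling and -0.16 with housekeeping scaling. Vps18, a subunit of the complex that tethers vesicles to lysosomes, read 7694 in the control culture and 8577 in the NYT culture (1.17), with 1.16 by a second probe. Atg12, a ubiquitin-like protein of autophagosome formation, read 8001 and 8505 (1.11), with 1.91 by a second probe. Map1lc3a, a protein of the autophagosome membrane, read 1405 and 1485 (1.1). Atg9a, the membrane protein that seeds autophagosomes, was lower, at 917 and 147 (-1.63).

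**Figure D4:**
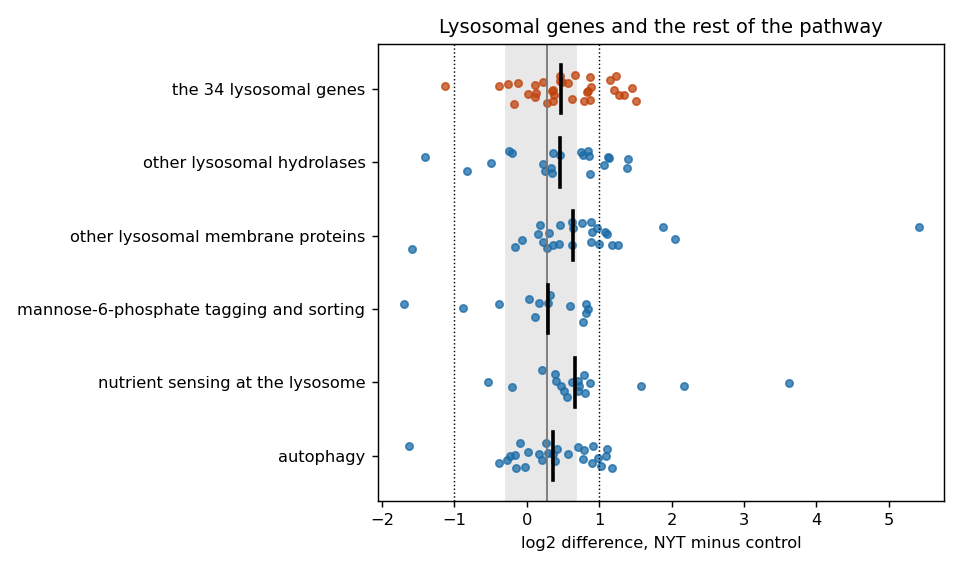
Log2 difference (NYT minus control, scaled to the 75th percentile) of the 34 lysosomal genes and of 5 further lists; each point is a gene, black bars are medians, dotted lines 2-fold, and the grey band and line the quartiles and median of all genes measured. Mcoln3 at 5.41 and Rragd at 3.63 lie farthest to the right; medians run from 0.29 to 0.67 on this scale, and all are below 0 without scaling.

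Markers of the blood cell types that marrow can hold moved with the comparison. Their counts stand beside 11.2% of all genes at least 2-fold higher and 11% lower. Of 14 macrophage markers, 3 were at least 2-fold higher, namely Cd68 (1.18), Trem2 (1.63) and Gpnmb (1.65), and 6 were lower, among them C1qa (-5.21). Their mean log2 level relative to the 75th percentile was 4.62 in the control culture and 3.52 in the NYT culture. All 10 mature neutrophil markers were below 0 and 9 at least 2-fold lower, with a mean level of 5.31 and 2.12. The 7 measured megakaryocyte and platelet markers were all at least 2-fold lower (3.87 and -0.32), as were the 7 measured of 9 mast cell and basophil markers (1.44 and -3.33), whose other 2 were well above background on the control array alone. Of 6 eosinophil markers 5 were at least 2-fold lower (1.71 and -1.62). Of 7 measured osteoclast markers 2 were at least 2-fold higher and 2 lower (1.25 and 1.1). Another osteoclast marker, Calcr, was well above background on the NYT array alone, at 5.39 in the control culture and 27.1 in the NYT culture. The T and NK cell markers were at least 2-fold lower in 3 of the 5 measured (1.60 and -0.67), and the other 4 of 9 were well above background on the control array alone. B and plasma cell markers were at least 2-fold lower in 2 of 7 (1.39 and -0.14), erythroid markers in 4 of 6 measured (0.81 and -0.95) and stromal markers in 4 of 7 measured (0.72 and -1.13). Those at least 2-fold higher were Slc4a1 (1.3) among the erythroid markers and Lepr (1.35) and Fstl1 (1.64) among the stromal ones. Slc4a1 was dim on both arrays, at 30.3 in the control culture and 36.7 in the NYT culture. Without scaling none of these reached 2-fold (Slc4a1 0.28, Lepr 0.34, Fstl1 0.62). Nor did the macrophage markers Cd68 (0.16), Trem2 (0.61) and Gpnmb (0.63). Cd68 is also counted among the other lysosomal membrane proteins above. The cultures thus differed in the markers of many cell types, and their part in the lysosomal differences was not tested. In RNA from a whole culture, fewer cells of a type and less RNA per cell cannot be told apart. The 19 housekeeping genes had a median difference of 0.52 as scaled.

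The level at which the 34 genes stood depended on how the arrays were brought to a common scale. In all, 14 of the 34 lay above the median of all genes in each of 9 scaling and background settings, and 9 lay below it in each. The share of all genes that keep to 1 side was not counted, so whether these counts are unusual is not known. The 14 included all 7 that were at least 2-fold higher, with Mcoln1 at least 1.0 and Naglu at least 1.01 above that median in each. A gene at least 2-fold higher starts well above that median, 0.29 as scaled, so this was nearly given. The 9 were Lamp2, Man2b1, Fuca1, Ids, Asah1, Ppt1, Gm2a, Tfeb and Mitf. The side changed between settings for Lamp1, Psap, Lgmn, Sgsh, Gla, Hexa, Grn, Cln3, Tfe3, Tpp1 and Arsb. In 5 of the 9 settings every gene is shifted by the same amount. The side could therefore change only in the other 4, which were quantile normalization, loess, normexp and the authors' value table. The authors' table came close to quantile normalization, with medians of 0.125 and 0.126 and 15 of the 34 above the all-gene median in each. It is therefore not a separate check from quantile normalization. The 34 genes were mostly bright, and 32 of them lay above the median brightness of the genes measured. Among genes above that brightness, 7 of the 32 were at least 2-fold higher (21.9%), where 10.2% of all such genes were, and 1 of the 32 was lower, where 7.36% were. Loess, which fits the difference along brightness, left 2 of the 34 at least 2-fold higher (5.88%), where 5.53% of all genes were. The part of brightness in the differences was not tested.

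**Figure D5:**
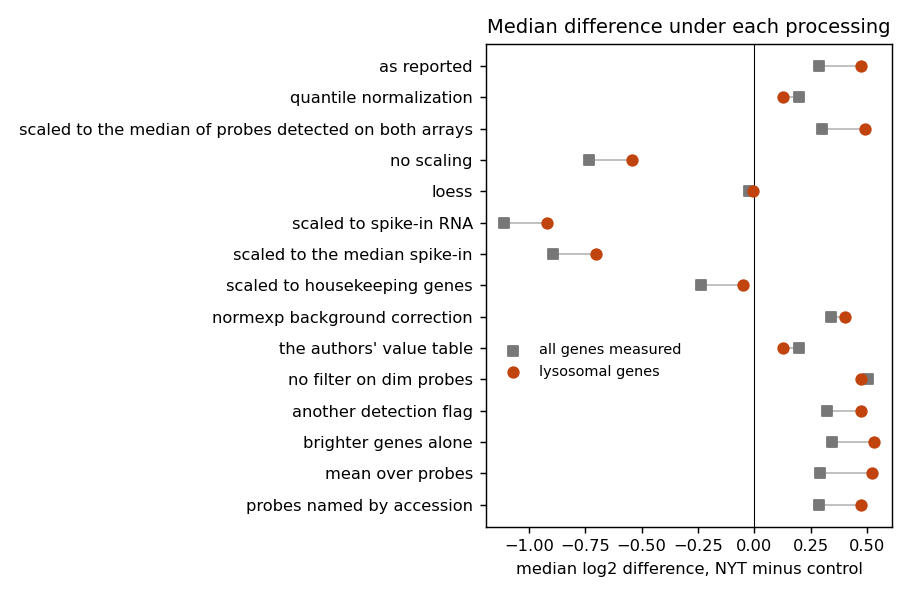
Median log2 difference (NYT minus control) of the 34 lysosomal genes (circles) and of all genes measured (squares) under each processing. The lysosomal median lies at 0.48 as reported, at 0.13 with quantile normalization and at -0.92 when scaled to spike-in RNA; it stands above the all-gene median as reported and below it with quantile normalization, with the authors' value table and without a filter on dim probes.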

How the data were processed

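The authors deposited the scanner output of both arrays. The file headers give Agilent Feature Extraction 10.7.1.1 as the software, where version 9.5.1.1 stands in the submitters' processing notes. The processed intensity had been detrended within each array, per the file headers, and the arrays had not been brought to 1 scale. The labels and the design text name different RNA kits. The authors also deposited a table of linear intensity values for both arrays; once sorted, the columns matched in 39073 of 39429 probes to a relative tolerance of 1e-06.

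Outlier spots (258 for control, 165 for NYT) were left out, no spot was saturated, spots of a probe were averaged as log2 values, and values were set relative to the 75th percentile of their own array. A probe counted as measured when over 50% of its spots were well above background, and the brightest probe measured on both arrays stood for a gene. Symbols came from the array files: 27724 probes had a current symbol, 3296 a synonym in the RefSeq table of GRCm38.p6 and 8409 kept the file's name. Probe positions are on mm9, per the file headers, and exon annotation was not used here.

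Every member is named, and from each further list the 4 genes with the largest difference, apart from 1 that is not reported here; genes were counted at 2-fold, with no test. Precision is limited by the number of arrays, with 1 in each group. The genes, lists and rules were chosen with earlier results of these data known. Alternatives were other scalings (quantile, median, none, loess with span 0.3, E1A spike-in RNA, housekeeping genes), normexp (offset 50) for the background, the authors' table, other filters, probe choices and thresholds. Scaling to the median spike-in was added after seeing the data. Counting was tested on simulated data. R 4.3.3, limma 3.58.1, Python 3.11.15 and pandas 2.3.3 were used.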

Additional observations from a re-analysis of the deposited data

How the results depend on the processing

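The direction of the lysosomal genes as a set depended on the scaling, and the cause was not tested. With quantile normalization 4 of the 34 were at least 2-fold higher (11.8%, against 11% of all genes) and the median was 0.13, against 0.20. With the authors' value table the count was 3 (8.82%, against 11%) and the median was 0.13, also against 0.20. With no scaling 0 were higher (all genes 1.24%) and 5 lower (14.7%, all genes 36.4%), and the median was -0.54, against -0.73. With loess 2 were higher (5.88%, all genes 5.53%) and the median was -0.0071, against -0.024, and with housekeeping scaling 0 were higher (all genes 3.36%) and it was -0.048, against -0.24. With the mean of the E1A spike-in RNA 0 were higher (all genes 0.736%), 15 lower (44.1%, all genes 57.1%) and the median was -0.92, against -1.11, and Cd63 (-0.24), Galns (-0.12), Lipa (-0.047), Npc2 (-0.19) and Sqstm1 (-0.16) changed sign. One spike-in, E1A_r60_a107, differed by 2.25 between the arrays and moved that mean. With the median spike-in, a setting chosen after seeing the data, 0 were higher (all genes 0.977%) and 9 lower (26.5%, all genes 44%), the median was -0.70, against -0.89, and Cd63 was at -0.022. At 1.5-fold 15 were higher, where 30.4% of all genes were. At 3-fold 0 were higher and 0 lower, and the share of all genes was not counted at that threshold. Over 9 scaling and background settings, the reported one included, Man2b1 was at least 2-fold lower in 9, while Naglu and Mcoln1 were at least 2-fold higher in 6, Galns in 5, Sqstm1 in 4, and Cd63, Lipa and Npc2 in 3. In 5 of those 9 settings every gene is shifted by the same amount, so they are not separate checks. The authors' value table came close to quantile normalization, so it is not a separate check either. Among the 34 differences, 155 alternative values crossed the 2-fold line or changed the sign of a gene under 2-fold, 6 changed the sign of a gene past 2-fold and 313 did none of these. Medians of the 11 role and pathway lists were all below 0 with no scaling and with both spike-in scalings, 6 were with housekeeping scaling and 4 with loess. The count of genes with the promoter element was 8, and 9 with CACGTG alone. No array could be left out. No paired analysis was possible because there was 1 array in each group. Signal over background limits what Arsb and Slc4a1, Mcoln3 and Rragd on the control array, and the dim second probes of Mcoln1, Sqstm1 and Fuca1 can show.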
